A study of Mus musculus with 6 samples.

Results

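The MS4A genes described here encode small proteins that cross the membrane several times, and 7 of them were followed across 3 sorted populations of splenic dendritic cells: Ms4a1, Ms4a4b, Ms4a4c, Ms4a6b, Ms4a6c, Ms4a6d and Ms4a7. They were selected on their log2 values over the 3 populations, and were taken as the probe sets annotated with 1 gene symbol that is on this list, which gave 7 probe sets, 1 for each gene, among 19938 genes measured. The choice rested on Ms4a4c being high in both cDC2 populations and low in cDC1. The values of each gene against cDC1 are therefore given as a description, with no test, and only the comparison between the cDC2 populations was tested. No filter on low values was applied, so all 7 genes entered that test.

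The conventional dendritic cells of the spleen are of 2 types: cDC1, specialised in cross-presentation, and cDC2, which bear the surface protein CD172a, encoded by Sirpa. The arrays held RNA of CD24+CD172a+ cDC2, of CD24-CD172a+ cDC2 and of CD24+ cDC1, 2 arrays each, all sorted from wild-type spleen. The sample titles name the last 2 populations only as CD172a+ and CD24+. Strain, age, sex, any pooling of animals and any treatment are not given in the sources used here, and nothing states that replicate arrays stem from different animals, so p-values measure only the spread between these arrays. All levels below are log2 RMA intensities (robust multi-array average, a background-corrected and quantile-normalised probe set value), and the level of one gene cannot be set against that of another.

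Sirpa stood between 10.01 and 10.27 on the 4 cDC2 arrays, and at 4.97 and 5.39 on the cDC1 arrays. Xcr1, the chemokine receptor that marks cDC1, stood between 4.79 and 6.07 on the cDC2 arrays and at 10.71 on both cDC1 arrays. Cd24a, which encodes the CD24 used in the sort, averaged 10.88 in CD24+CD172a+ cDC2, 8.83 in CD24-CD172a+ cDC2 and 11.75 in cDC1, so the CD24- population was lowest but still well above the median gene. Replicate arrays correlated at 0.992 to 0.993 across genes, and the median gene of the arrays lay between 5.01 and 5.03.

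The best-known member of the MS4A family is CD20 (Ms4a1), the B cell surface protein that therapeutic antibodies target. The beta chain of the high-affinity IgE receptor (Ms4a2) of mast cells and basophils also belongs to the family. So do Ms4a4 and Ms4a6 proteins found on T cells and on cells of the monocyte and macrophage lineage. Members of the family sit in the plasma membrane or in endosomes and associate with receptors there. Most of the mouse genes lie in a single cluster on chromosome 19.

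The cluster holds sets of close copies, and the upstream sequence of 2 such pairs is shown because the pairs differ in these cells: Ms4a4c lay far above its own cDC1 level in cDC2 while Ms4a4b stayed dim in every population, and Ms4a6c and Ms4a6b were high in cDC2 together. RefSeq's promoter table (build GRCm38.p6) had entries for 5 of the 7 genes. The 250 bases before each transcription start are printed 5′ to 3′, in capitals where a run of 12 or more bases also occurs in the other gene of the pair.
Ms4a4c, chr19:11407411-11407660, + strand: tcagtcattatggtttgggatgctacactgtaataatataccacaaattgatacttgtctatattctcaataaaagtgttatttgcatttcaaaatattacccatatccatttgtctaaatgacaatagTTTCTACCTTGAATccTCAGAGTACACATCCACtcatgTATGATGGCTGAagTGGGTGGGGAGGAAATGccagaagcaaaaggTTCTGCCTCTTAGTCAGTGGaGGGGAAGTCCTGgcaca
Ms4a4b, chr19:11443308-11443557, + strand: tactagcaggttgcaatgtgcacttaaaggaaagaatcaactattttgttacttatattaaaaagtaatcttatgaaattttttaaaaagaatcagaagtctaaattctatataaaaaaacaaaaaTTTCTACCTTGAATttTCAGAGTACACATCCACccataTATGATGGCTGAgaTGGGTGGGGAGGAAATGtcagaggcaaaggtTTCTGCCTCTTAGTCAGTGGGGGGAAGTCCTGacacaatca
Ms4a6c, chr19:11469118-11469367, + strand: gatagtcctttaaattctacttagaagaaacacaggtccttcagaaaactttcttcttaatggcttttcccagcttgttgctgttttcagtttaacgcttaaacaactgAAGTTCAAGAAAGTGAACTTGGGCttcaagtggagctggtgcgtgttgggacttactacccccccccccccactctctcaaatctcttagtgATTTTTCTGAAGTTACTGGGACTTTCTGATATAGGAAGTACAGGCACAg
Ms4a6b, chr19:11518309-11518558, + strand: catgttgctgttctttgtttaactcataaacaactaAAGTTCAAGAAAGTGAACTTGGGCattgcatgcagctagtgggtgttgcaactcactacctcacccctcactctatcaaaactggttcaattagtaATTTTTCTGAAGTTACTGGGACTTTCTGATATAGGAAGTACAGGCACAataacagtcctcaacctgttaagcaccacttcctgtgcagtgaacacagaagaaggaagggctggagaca

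The windows of Ms4a4c and Ms4a4b were identical at 185 of 231 aligned bases (80.1%), and 92 bases of each lay in shared runs, the longest of 20 bases. Those runs stood in the part nearest the start. Ms4a6c and Ms4a6b were identical at 149 of 175 aligned bases (85.1%) and shared a run of 48 bases. Between an Ms4a4 and an Ms4a6 window no run of 12 bases was shared, and identity over the aligned bases ran from 54.3% to 60.4%.

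A search on either strand found GAGGAA, a core bound by the myeloid factor PU.1, once in Ms4a4c and once in Ms4a4b, starting 61 and 64 bases before the start. It occurred in neither Ms4a6 window and in neither of the 2 Ms4a7 windows, and 23.3% of the table's 32851 promoters of this length hold it. GGAAGT, a related ETS core that was added after the sequences had been read, occurred in Ms4a4c, Ms4a4b, Ms4a6c, Ms4a6b and 1 of the 2 Ms4a7 windows, against 19.7% of all promoters. The 2 motifs overlap wherever GAGGAA is followed by GT. The interferon response core (GAAA, any 2 bases, GAAA) and the ETS-IRF core (GGAA, any 2 bases, GAAA), which 2.98% and 2.30% of promoters hold, were found in none of these windows.

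Ms4a4c, of the Ms4a4 subgroup, was at 9.37 and 9.21 in CD24+CD172a+ cDC2, at 8.99 and 9.42 in CD24-CD172a+ cDC2 and at 4.67 and 4.38 in CD24+ cDC1. The cDC2 arrays overlapped one another, and all 4 lay above both cDC1 arrays. The mean was 27.2-fold higher in CD24+CD172a+ cDC2 than in cDC1 and 25.7-fold higher in CD24-CD172a+ cDC2 than in cDC1, the widest difference among the 7 genes in each comparison. In RNA of sorted populations, fewer cells that express a gene and less of its RNA per cell cannot be told apart.

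Ms4a4b, a T cell protein that associates with the receptor GITR, was at 3.76 and 3.79 in CD24+CD172a+ cDC2, at 3.55 and 3.89 in CD24-CD172a+ cDC2 and at 3.26 and 3.19 in cDC1. Every array thus lay below 3.93, the average 25th percentile of all genes on these arrays, where signal over background was not examined. On the log2 scale, CD24+CD172a+ cDC2 differed from cDC1 by 0.55, and CD24-CD172a+ cDC2 by 0.50. Of 12 T cell markers measured, 1 was called higher (limma, adjusted p under 0.05 over all genes) in CD24+CD172a+ cDC2 than in cDC1, 2 were in CD24-CD172a+ cDC2, and none was lower, where 13.6% and 15.7% of all genes were called. Their summed intensity on a linear scale was 579 to 637 in CD24+CD172a+ cDC2, 588 to 619 in CD24-CD172a+ cDC2 and 484 to 489 in cDC1. Such a sum weighs the brightest markers most. The median log2 difference of the 12 markers from cDC1 was 0.007 for CD24+CD172a+ cDC2 and -0.002 for CD24-CD172a+ cDC2. The brightest were Cd5, a surface receptor that dampens antigen receptor signals, and Il7r, the interleukin 7 receptor. In CD24+CD172a+ cDC2, CD24-CD172a+ cDC2 and cDC1, Cd5 averaged 7.63, 7.60 and 7.70, and Il7r, which was called higher in both cDC2 populations, averaged 7.32, 7.30 and 4.68. The other gene called, in CD24-CD172a+ cDC2, was Cd3d, at 4.12, 4.51 and 4.04 in the same order. Among the other chains of the T cell receptor complex, Cd3e lay above the median gene, at 5.30, 5.40 and 5.44, and Cd3g below the 25th percentile, at 2.95, 2.91 and 2.88. The part of T cells in the Ms4a4b values was not tested.

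Ms4a6c was at 10.002 and 9.86 in CD24+CD172a+ cDC2, at 9.55 and 9.67 in CD24-CD172a+ cDC2 and at 7.12 and 6.78 in cDC1. Ms4a6b, from the same subgroup, was at 9.29 and 9.28 in CD24+CD172a+ cDC2, at 8.96 and 9.12 in CD24-CD172a+ cDC2 and at 6.75 and 6.15 in cDC1. For both genes the order of the populations was the same, with no overlap between any 2 of them, and cDC1 still lay above the median gene. The means of Ms4a6c were 7.89-fold and 6.32-fold higher than in cDC1 in the CD24+CD172a+ and the CD24-CD172a+ cDC2, and those of Ms4a6b 7.13-fold and 6.02-fold higher. Whether the probes of the 2 probe sets also bind the transcript of the other gene was not tested. For Ms4a4b and Ms4a4c, the Ms4a4b probe set stayed dim on the arrays where Ms4a4c was bright.

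Ms4a6d, which in mouse has been described in macrophages, was at 4.88 and 4.40 in CD24+CD172a+ cDC2, at 4.98 and 4.85 in CD24-CD172a+ cDC2 and at 4.02 and 3.77 in cDC1. It lay below the median gene in every population. Its mean in cDC1, 3.89, was also below the 25th percentile, so the differences of 0.74 and 1.02 on the log2 scale may be lower bounds.

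Ms4a7, found on macrophages and microglia, had 3 separate levels. It was at 6.04 and 6.09 in CD24+CD172a+ cDC2, at 7.0003 and 7.23 in CD24-CD172a+ cDC2 and at 4.999 and 5.16 in cDC1. CD24+CD172a+ cDC2 thus lay between the other populations, 1.98-fold above cDC1, while CD24-CD172a+ cDC2 lay 4.10-fold above cDC1.

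Ms4a1 ran the other way. It was at 5.38 and 5.41 in CD24+CD172a+ cDC2, at 5.26 and 5.81 in CD24-CD172a+ cDC2 and at 7.12 and 6.70 in cDC1, so both cDC1 arrays lay above all cDC2 arrays, which overlapped. Its mean was 2.87-fold lower in CD24+CD172a+ cDC2 and 2.60-fold lower in CD24-CD172a+ cDC2 than in cDC1.

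**Figure D1:**
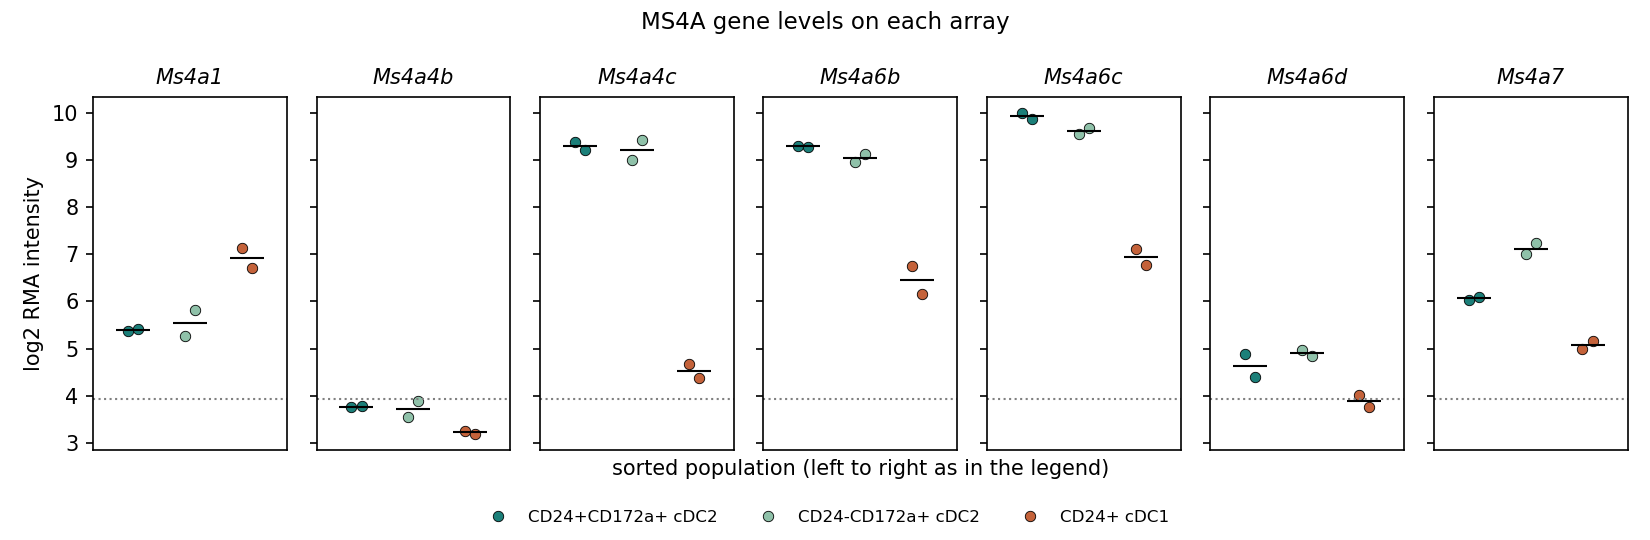
Log2 RMA intensity of the 7 MS4A genes (vertical axis) on each array, with the 3 populations side by side in each panel, points for arrays, short lines for group means and a dotted line at the average 25th percentile of all genes (3.93). Ms4a4c, Ms4a6b and Ms4a6c are high in both cDC2 populations, Ms4a1 is higher in cDC1, Ms4a7 takes a separate level in each population and Ms4a4b stays below the dotted line.

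Since CD20 marks B cells, the other B cell markers were set beside Ms4a1. Of 14 measured, limma found 7 higher and 1 lower in CD24+CD172a+ cDC2 than in cDC1, and 5 higher and 1 lower in CD24-CD172a+ cDC2 than in cDC1, where 13.6% and 15.7% of all genes were called. Their summed intensity was 854 to 929 in CD24+CD172a+ cDC2, 865 to 873 in CD24-CD172a+ cDC2 and 537 to 560 in cDC1. The sum was thus lowest in cDC1, where Ms4a1 was highest, but such a sum weighs the brightest genes most. The brightest, Cd37 and the inhibitory receptor Cd22, were not lower in either cDC2 population. In CD24+CD172a+ cDC2, CD24-CD172a+ cDC2 and cDC1, Cd37 averaged 8.12, 7.83 and 7.58, and Cd22 averaged 7.10, 7.38 and 5.23. The part of B cells in the Ms4a1 values was not tested beyond these markers.

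Some markers that define B cells were dim throughout, while 8 of the 14 lay above the median gene in at least 1 population. Cd79a, a signalling chain of the B cell receptor, was at 3.84, 3.51 and 3.47 in CD24+CD172a+ cDC2, CD24-CD172a+ cDC2 and cDC1, and the early B cell factor Ebf1 at 3.07, 3.12 and 3.17, each below the 25th percentile. Pax5, which commits cells to the B lineage, was at 4.74, 4.77 and 4.81 in the same order. Among the brighter ones, Cd79b was at 5.99, 5.69 and 5.42, Blk at 6.02, 5.90 and 4.87, and Bank1 at 6.03, 6.98 and 5.23. Blk and Bank1 were called higher in both cDC2 populations than in cDC1, and Cd79b in CD24+CD172a+ cDC2. These 3 were also named after their values were seen. The single marker that was lower in both cDC2 populations, named after its values were seen, was Fcrla, an Fc receptor-like protein made by B cells. Its log2 differences from cDC1 were -1.28 ± 0.16 for CD24+CD172a+ cDC2 and -1.003 ± 0.16 for CD24-CD172a+ cDC2 (SE, limma adjusted p = 0.00025 and 0.00126).

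Counted over the 7 genes, 3 (Ms4a4c, Ms4a6b and Ms4a6c) were at least 2-fold higher in CD24+CD172a+ cDC2 than in cDC1, as were 2.39% of all genes, and 1, Ms4a1, was at least 2-fold lower, as were 2.26%. Ms4a6d and Ms4a7 joined the first 3 in CD24-CD172a+ cDC2, which made 5 at least 2-fold higher, against 2.47% of all genes, with Ms4a1 again lower, against 2.34%. The median log2 difference of the 7 genes was 0.98 and 2.04 in the 2 comparisons, against -0.03 and 0.00 over all genes. In each comparison, both arrays of the cDC2 population lay above both cDC1 arrays for 6 of the 7 genes and below them for Ms4a1. Over all genes, the shares with such a gap were 23.5% higher and 28.6% lower for CD24+CD172a+ cDC2, and 25% higher and 27.4% lower for CD24-CD172a+ cDC2. The genes were chosen with this pattern known, and the comparisons share the cDC1 arrays, so nothing is read from these counts.

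The genes with the pattern nearest to that of Ms4a4c were found by the distance between log2 values centred on each gene's mean, over the 6 arrays and 18596 genes. They were Klrd1, which encodes CD94 (distance 0.33), the adhesion molecule gene Dscam (0.41), Sh2d1b1, an adaptor of SLAM receptors (0.53), S100a4 (0.59) and Cd7 (0.64). Klrd1, for instance, was at 11.57 and 11.58 in CD24+CD172a+ cDC2, at 11.19 and 11.38 in CD24-CD172a+ cDC2 and at 6.95 and 6.73 in cDC1. Ms4a6c and Ms4a6b stood at ranks 48 and 54 by this distance, Ms4a7 at rank 246, Ms4a6d at 559 and Ms4a4b at 1114, and Ms4a1 at 18379.

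In the reference gene table, 21 Ms4a genes lie in a row on chromosome 19, of which 19 had a probe set used here. The 8 measured genes from Ms4a7 to Ms4a6d, a stretch picked out after the values were seen, each had a higher mean in both cDC2 populations than in cDC1, as did 3 of the 11 measured genes outside it. The log2 differences of the 8 from cDC1 ran from 0.22 to 4.77 for CD24+CD172a+ cDC2 and from 0.16 to 4.68 in CD24-CD172a+ cDC2. The lowest were those of Ms4a4d, which were not called (limma adjusted p = 0.455 and 0.586). Since the values set the ends of the stretch, its contrast with the other genes is no test. Within the stretch, Ms4a4b and Ms4a4d, which were dim in every population, lay beside Ms4a4c, Ms4a6c and Ms4a6b. Apart from Ms4a1, the 10 measured genes on either side differed from cDC1 by -0.23 to 0.17 in CD24+CD172a+ cDC2 and by -0.27 to 0.14 in CD24-CD172a+ cDC2.

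**Figure D2:**
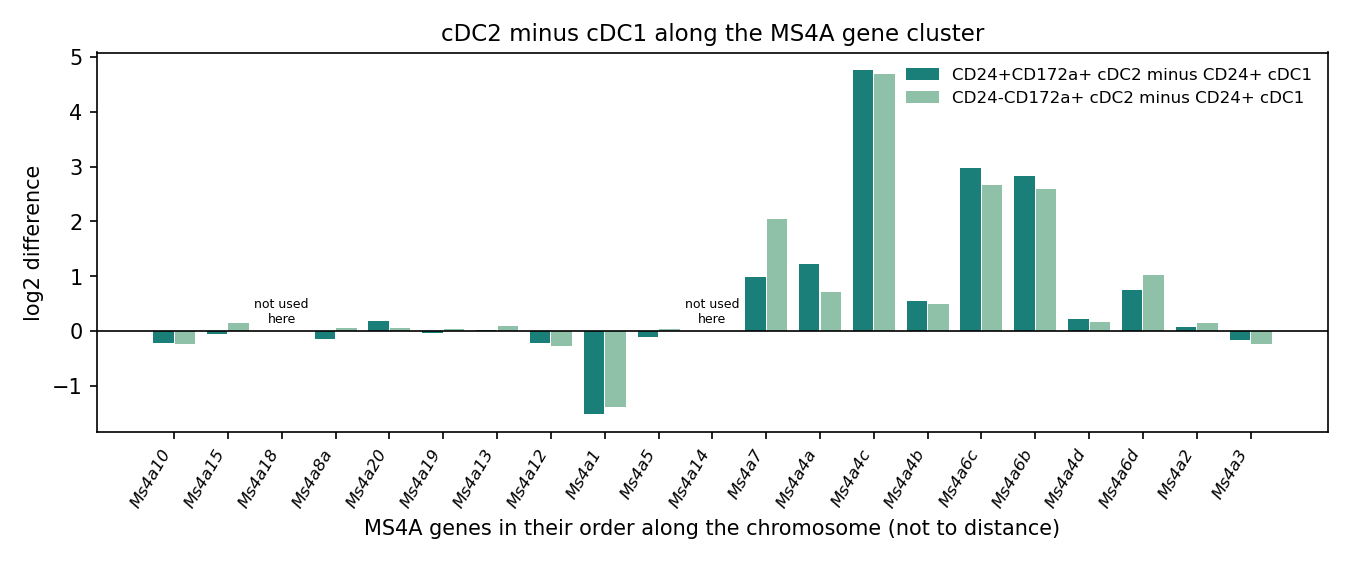
Log2 difference from cDC1 (vertical axis) of CD24+CD172a+ cDC2 and of CD24-CD172a+ cDC2 for the Ms4a genes in their order along chromosome 19, with bars for differences of group means and spacing that does not stand for distance. From Ms4a7 to Ms4a6d all 8 measured genes lie above 0, with Ms4a4c reaching 4.77 and 4.68. Outside that stretch 3 further genes lie above 0 in both populations, the highest of them at 0.17, and Ms4a1 goes below -1.

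Relatives outside the 7 genes were compared in the same way, on a list chosen with earlier results of these data known. Of 12 measured (of 15 listed), 3 rose in each cDC2 population against cDC1, none fell and 9 were not called, where 13.6% and 15.7% of all genes were called. The same 3 genes rose in both, Tmem176a, Tmem176b and Ms4a4a. Tmem176a and Tmem176b encode endosomal ion channels related to the MS4A proteins, and their genes lie outside the cluster. The list's median log2 difference was -0.02 and 0.12, and 6 of its genes were below the 25th percentile in every population.

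Tmem176a was at 9.96 and 10.01 in CD24+CD172a+ cDC2, at 9.77 and 9.70 in CD24-CD172a+ cDC2 and at 6.70 and 6.74 in cDC1. It rose by 3.26 ± 0.12 and 3.02 ± 0.12 on the log2 scale (SE, limma adjusted p = 4.5e-08 and 7.7e-08). Tmem176b rose by 2.94 ± 0.14 and 2.84 ± 0.14 (limma adjusted p = 2.98e-07 and 3.48e-07). Ms4a4a, whose human counterpart is a macrophage protein, was at 5.01 and 4.94 in CD24+CD172a+ cDC2, at 4.54 and 4.39 in CD24-CD172a+ cDC2 and at 3.80 and 3.72 in cDC1. It rose by 1.22 ± 0.13 and 0.71 ± 0.13 (limma adjusted p = 8.41e-05 and 0.00338), differences that may be lower bounds, since cDC1 lay below the 25th percentile.

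Ms4a15 and Ms4a10, the others of the list above the median gene in any population, were not called. Ms4a15 averaged 5.47, 5.67 and 5.53 in CD24+CD172a+ cDC2, CD24-CD172a+ cDC2 and cDC1, and Ms4a10 4.98, 4.95 and 5.19. Ms4a2, the IgE receptor beta chain, averaged 3.83, 3.90 and 3.76, below the 25th percentile in each. Of 9 mast cell and basophil markers, 2 rose in CD24+CD172a+ cDC2 and 1 rose in CD24-CD172a+ cDC2 against cDC1 and none fell, where 13.6% and 15.7% of all genes were called. They were also the brightest of the list. Kit, the stem cell factor receptor, averaged 10.23, 9.87 and 9.52 in CD24+CD172a+ cDC2, CD24-CD172a+ cDC2 and cDC1, and rose in the first (limma adjusted p = 0.00288). Hdc, which makes histamine, averaged 7.31, 7.57 and 6.78 in the same order and rose in both (limma adjusted p = 0.034 and 0.00361). Fcer1a, the alpha chain of the IgE receptor, was at 2.66, 2.91 and 2.86. A list of 5 genes whose products are reported to associate with MS4A proteins was chosen with earlier results of these data known. Of them, 2 rose in each cDC2 population against cDC1 and none fell, where 13.6% and 15.7% of all genes were called. These were Fcer1g, the common signalling gamma chain, by 3.25 ± 0.14 and 3.36 ± 0.14, and Clec7a, the beta-glucan receptor Dectin-1, by 2.19 ± 0.13 and 2.34 ± 0.13 (SE, limma adjusted p from 8.84e-08 to 1.01e-06).

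Between the cDC2 populations, which differ in CD24, Ms4a7 was the gene of the 7 that changed. Its level was 2.07-fold lower in CD24+CD172a+ cDC2 than in CD24-CD172a+ cDC2, a log2 difference of -1.05 ± 0.14 (SE, 95% interval -1.36 to -0.75, limma adjusted p = 0.00755), and the arrays did not overlap. Limma called 1 of the 7 genes, against 1.46% of all genes tested, and in the lower direction 1 against 0.652% (0 in the higher direction, against 0.808%). Leaving out 1 array ended the call in 3 fits: limma gave an adjusted p of 0.0943 and 0.0665 when the first or the second CD24+CD172a+ array was dropped, and of 0.0501 when the second CD24-CD172a+ array was. Without CD24-CD172a+ replicate 1 it stayed (adjusted p = 0.0208), and the difference lay between -1.17 and -0.94 in these fits.

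The other 6 genes were not called, and their intervals give the sizes that the arrays allow. Ms4a6c differed by 0.32 (95% interval -0.01 to 0.65, adjusted p = 0.370), and Ms4a6b by 0.25 (-0.16 to 0.65, adjusted p = 0.603). Their arrays did not overlap between the cDC2 populations, but with Ms4a7 that made 3 of 7 genes, against 44.2% of all genes. Ms4a4c differed by 0.08 (-0.29 to 0.46, adjusted p = 0.870). Ms4a4b, Ms4a1 and Ms4a6d differed by 0.05, -0.14 and -0.27 (adjusted p = 0.918, 0.798 and 0.525), with intervals that lay within -0.66 and 0.37. The median over the 7 genes was 0.05, against -0.01 over all genes.

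**Figure D3:**
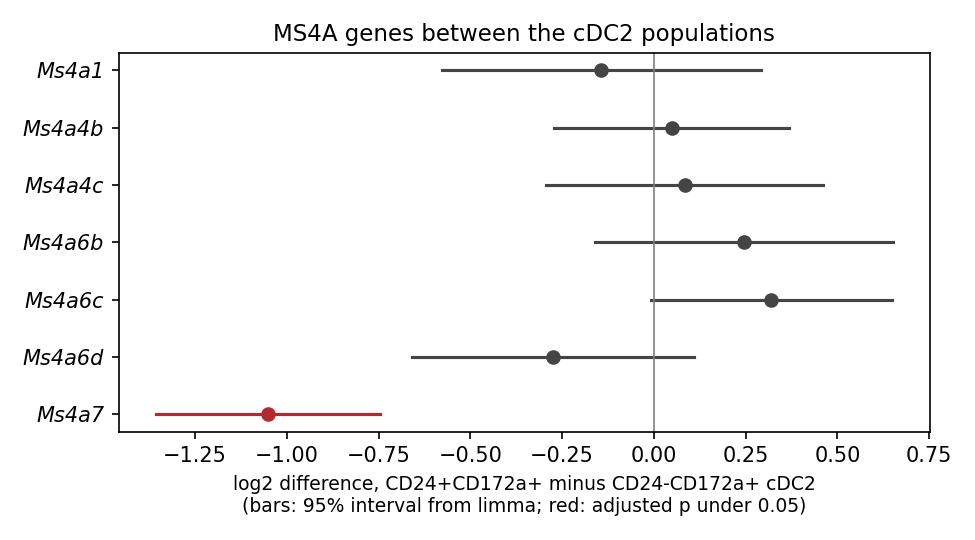
Log2 difference of CD24+CD172a+ minus CD24-CD172a+ cDC2 (horizontal axis) for each MS4A gene, with points for limma's estimates and bars for their 95% intervals. The interval of Ms4a7, from -1.36 to -0.75, lies below 0, and those of the other 6 genes cross it.

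Markers of monocytes and macrophages, cells in which Ms4a7 is known, were set beside it. Of 17 measured (19 listed), CD24+CD172a+ cDC2 had 7 lower, 10 without a call and none higher, against 0.652% of all genes called lower and 0.808% higher, with a median log2 difference of -0.46. Their summed intensity was 4762 to 5425 in CD24+CD172a+ cDC2 and 7274 to 7418 in CD24-CD172a+ cDC2. It was 7230 to 7281 in cDC1, where Ms4a7 was lowest, but such a sum weighs the brightest genes most. By gene, limma called 7 of the 17 higher and 3 lower in CD24-CD172a+ cDC2 than in cDC1. In CD24+CD172a+ cDC2 it called 4 higher and 5 lower than in cDC1. Of all genes, 15.7% and 13.6% were called in these comparisons. The brightest markers, lysozyme M (Lyz2) and the endosomal protein Cd68, had different patterns. In CD24+CD172a+ cDC2, CD24-CD172a+ cDC2 and cDC1, Lyz2 averaged 10.20, 11.29 and 11.61, and Cd68, which was not called between the cDC2 populations, 10.86, 10.93 and 10.46. The 7 that fell, named after their values were seen, included Spic, a transcription factor of red pulp macrophages (log2 difference -1.56), Adgre1, which encodes F4/80 (-1.12), and the complement genes C1qa, C1qb and C1qc (-0.88, -0.93 and -0.82), besides Treml4 (-1.23) and Lyz2 (-1.09). Of the 10 without a call, 3 had a higher mean in CD24+CD172a+ cDC2, the direction opposite to Ms4a7: Csf1r, the receptor of the macrophage growth factor, by 0.17, and the chemokine receptors Cx3cr1 and Ccr2 by 0.24 and 0.22. The macrophage receptor Mertk lay below the 25th percentile in each population, at 3.62, 3.69 and 3.91, and Fcgr1, the high-affinity IgG receptor, at 4.61, 4.71 and 4.58, below the median gene. The part of macrophages or monocytes in the Ms4a7 difference was not tested.

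**Figure D4:**
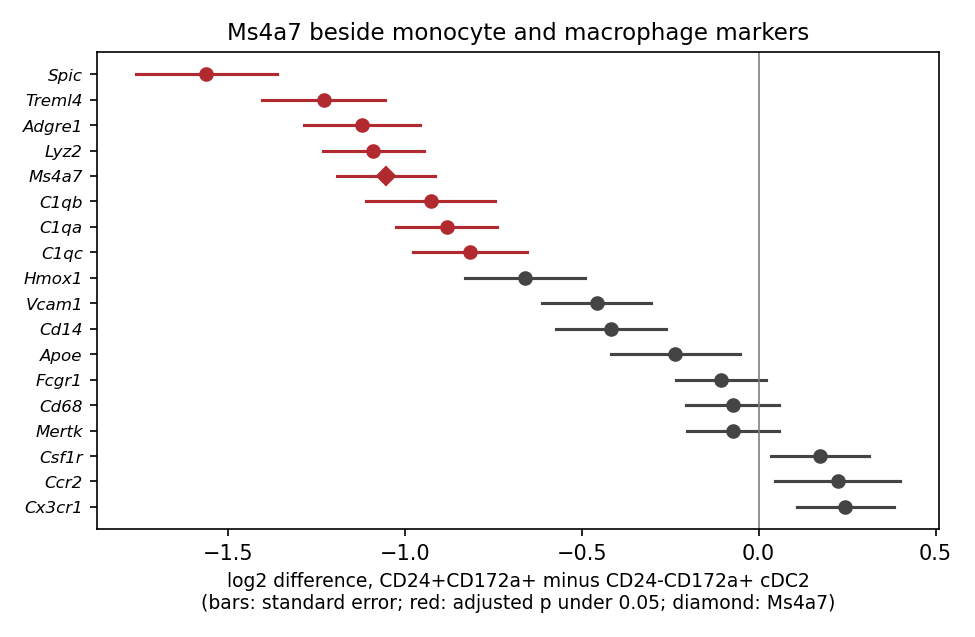
Log2 difference of CD24+CD172a+ minus CD24-CD172a+ cDC2 (horizontal axis) for Ms4a7 (diamond) and 17 monocyte and macrophage markers, with bars for the standard error and red for genes with an adjusted p under 0.05. Ms4a7, at -1.05, stands among the 7 markers that fell.

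None of the 12 relatives outside the 7 genes was called between the cDC2 populations (limma, 1 with an unadjusted p under 0.05). That gene was Ms4a4a, which differed by 0.51 ± 0.13 (adjusted p = 0.0937), with CD24+CD172a+ cDC2 higher. Tmem176a and Tmem176b differed by 0.25 ± 0.12 and 0.09 ± 0.14 (adjusted p = 0.407 and 0.822).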

How the data were processed

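RNA of 3 sorted splenic populations was hybridised to 6 Affymetrix arrays, 2 a population. Column-purified RNA was labelled with a WT Pico kit, per the labels' protocols. According to the submitters' processing notes, Affymetrix Expression Console and RMA were used, with versions and genome build not given in the sources used here. The range of the deposited RMA intensities shows a linear scale, so their log2 was taken. Of 28853 probe sets, 21789 had 1 gene symbol in the platform annotation, 1621 several and 5443 none. Only probe sets with 1 symbol were used. For the 999 genes with several such probe sets, the one of highest average signal stood for the gene, giving 19938 genes. Gene names were checked in a GRCm38.p6 table. Scanner files were not used, so background and scan batches were not examined. Precision is limited by having few arrays.

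Populations were compared with limma 3.58.1 (R 4.3.3) on all 6 arrays, with Benjamini-Hochberg adjustment over all genes and a threshold of 0.05. The prior had 7.31 degrees of freedom and the residual 3. The same fit was tested on simulated data for the 2 cDC2 populations (5 simulations, 200 of 19938 genes altered). It called 8.4% of genes altered by 0.5 on the log2 scale, 85.4% at 1 and 100% at 2, and 5.68% of its calls were false. Promoters came from RefSeq and were aligned with Biopython 1.88. Groups follow the sample titles.

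The 7 genes and all lists were chosen with earlier results of these data known. All 7 are named, with relatives called or above the median gene, the 2 brightest genes of each marker list described in the text above, and the 5 nearest patterns. Other markers, such as those that define a cell type or were called, were named after their values were seen. Lists of NK cell, dendritic cell, cDC1 and cDC2 markers were also fixed. Between the cDC2 populations, 1 of 12 NK markers rose and none fell, and of 8 cDC1 markers 1 fell and none rose. Of all genes, 0.808% were called higher and 0.652% lower. Of 8 dendritic cell and 10 cDC2 markers none was called (limma, 3 of each with an unadjusted p under 0.05, against 14% of all genes). Set against cDC1, CD24+CD172a+ cDC2 had 9 of 10 cDC2 markers higher and 8 of 8 cDC1 markers lower, and CD24-CD172a+ cDC2 had 10 and 7. In these 2 comparisons 13.6% and 15.7% of all genes were called. Alternatives were the mean of probe sets, a filter on dim genes, cyclic loess, median centring, an intensity trend, fewer groups, the replicate number as a block, and each array left out in turn.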

Additional observations from a re-analysis of the deposited data

How the results depend on the processing

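Ms4a7 kept its call between the cDC2 populations under the 7 alternatives that leave out no array, with a limma adjusted p from 0.00278 to 0.0145. Without either cDC1 array, the fit of this comparison is the same as with only the 2 groups compared, so it adds no separate check. The mean of probe sets leaves the values of Ms4a7 unchanged, since it has 1 probe set. Over the 6 fits without 1 array, 0 to 1 of the 7 genes was called. Where limma called 0, 1 to 2 genes had an unadjusted p under 0.05. In fits that leave out a compared array, the lone array left is assumed to vary like the other groups. All genes called numbered 291, of which 161 were higher in CD24+CD172a+ cDC2. They numbered 437 among genes above the median gene, 464 with an intensity trend and robust variance, 187 with only the 2 groups compared, and 20 to 187 without 1 array (20 and 44 without CD24+CD172a+ replicate 1 or 2, 98 and 76 without CD24-CD172a+ replicate 1 or 2, 187 without either cDC1 array). Fewer genes tested or fewer arrays are part of some of these settings, and the cause was otherwise not tested. Cyclic loess gave 126 higher of 286.

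Differences near 0 between the cDC2 populations changed sign, none of them called: Ms4a4c was -0.015 under cyclic loess, and without 1 array Ms4a4c ran from -0.13 to 0.30, Ms4a4b from -0.12 to 0.22 and Ms4a1 from -0.42 to 0.13. Every log2 difference of the 7 genes from cDC1 kept its sign under the alternatives run. Under cyclic loess and median centring each moved by no more than 1 SD of the arrays. The other alternatives could not show a larger move. With 2 arrays a group, leaving out 1 cannot shift a difference by more than that SD. The mean of probe sets and the replicate block leave these differences unchanged. With the replicate number as a block, 411 genes were called and Ms4a7 had an adjusted p of 0.00327. The numbers were not taken as pairing, since no label says that they mark a shared animal or day, and replicate 1 minus replicate 2 correlated at 0.08, 0.08 and 0.02 between groups across genes. Signal over background was not examined, which limits Ms4a4b, Ms4a6d and Ms4a4a.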
